A study of Canis lupus familiaris with 12 samples.

Results

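The Slug transfectant of MDCK cells, a dog kidney line that grows as an epithelial sheet, was compared with the MDCK-CMV control on 2-colour arrays of human cDNA clones. The comparison rests on 4 of the 12 arrays of the study and on 2 of its 6 numbered samples, chosen by the titles Slug 1 and Slug 2, each with an array titled Cy5 and an array titled Cy3. The groups used here were, per the labels, MDCK cells transfected with Slug and, where Slug is set beside its relatives, MDCK cells transfected with Snail or E47, each hybridised against RNA of MDCK-CMV cells. The labels name no construct, clone, passage or growth condition, and nothing in them ties samples 1 and 2 of a transfectant to separate cultures, so the spread behind each p-value may be technical. The number of control RNA preparations is not given, and variation among control cultures does not enter a test of the ratio against 0.

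Slug, encoded by SNAI2, is a zinc finger repressor that binds E-box motifs and is known for silencing CDH1, which encodes E-cadherin of adherens junctions, during epithelial to mesenchymal transition. In that transition epithelial cells lose junctions and apical polarity, exchange their keratin and integrin repertoire and begin to secrete fibronectin, collagens and other matrix proteins. MDCK cells are a classical model for it because they form tight, polarised layers.

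Each value was a log2 ratio of the 2 channels, and both arrays of Slug 1 were multiplied by -1 so that all 4 arrays read Slug transfectant over control. This direction is assumed. The Slug 1 and Slug 2 arrays titled Cy5, which have the same labelled dye orientation, correlated with r = -0.57 across genes as deposited, the labels do not name the numerator, and the sign was set so that CDH1 lay below the control. The low CDH1 is therefore no finding, and with the sign turned every higher gene below becomes lower and every lower gene higher. Values were present for 86.5% to 99.4% of 13056 probes on the 4 Slug arrays, and their spread (SD 0.640 to 0.695) was wider than on the other arrays of the study (0.446 to 0.586). Within a sample, where turning changes nothing, the arrays correlated with r = 0.72 in Slug 1 and 0.43 in Slug 2. Arrays of different samples correlated after turning with r between 0.47 and 0.67. Where a clone had 2 spots, these correlated on the arrays titled Cy5 and Cy3 with r = 0.48 and 0.86 in Slug 1. In Slug 2 the values were 0.34 and 0.45. Several genes named below, such as ITGA5, TIMP1 and SPP1, rested on 1 spot per array. No probe carried the symbol SNAI2, so the level of Slug itself was not analysed here.

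Averaging spots per clone, clones per gene and the 2 arrays of each sample gave 2 replicate values for 4053 genes. A gene was called when its mean differed from 0 at a Benjamini-Hochberg adjusted p under 0.05 in limma, a linear model that pools the spread over the Slug, Snail and E47 samples and moderates it across genes. By this rule 885 genes, 21.8% of those tested, were called: 495 were higher in the Slug transfectant (12.2%) and 390 were lower (9.62%). With the sign turned these counts exchange. Among them 207 differed at least 2-fold (5.11%), 127 upward and 80 downward. The median log2 ratio of all 4053 genes was 0.02. The called genes were on the same side of 0 on all 4 arrays in 790 cases (89.3%), against 894 of the 3168 uncalled genes. A call favours such agreement, because it needs a mean away from 0. In 90 of the other 95 called genes a single array lay on the far side, and in 50 of these it was the Slug 2 array titled Cy3. Scaling all 12 arrays to an equal spread left 489 calls, without Slug 1 there were 329 (8.13%) and without Slug 2 there were 596 (14.8%), where the lone Slug sample is assumed to vary like the other groups. Counts of a gene list without 1 Slug sample, given below, are to be read against these shares. When the labelled dyes were taken literally, no gene was called by limma, 295 passed an unadjusted p of 0.05 and the lowest adjusted p was 0.176. That setting gives the 2 arrays of a sample opposite signs. As deposited these arrays correlated positively (r = 0.72 in Slug 1 and 0.43 in Slug 2), so their average cancels what they share. The absence of calls therefore cannot decide the direction. All values were from bulk RNA, in which fewer cells of a type and less RNA per cell cannot be told apart.

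**Figure D1:**
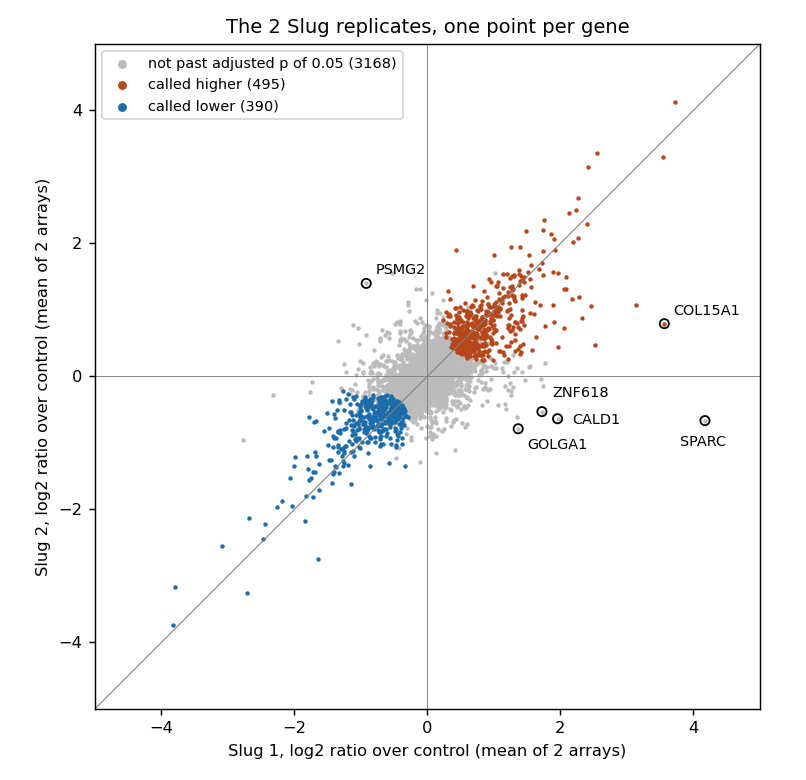
Mean log2 ratio of the 2 arrays of Slug 1 (horizontal) and of Slug 2 (vertical) for 4053 genes, coloured by call, with the 6 genes whose replicates lay furthest apart circled and named. Called genes lie along the diagonal in the upper right (495 higher) and lower left (390 lower), and SPARC sits far to the right at 4.17 in Slug 1 and -0.67 in Slug 2.

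The labelled cell type was looked at first. CDH1 was represented by 3 clones. The first had log2 ratios of -3.67 and -3.04 on the Slug 1 arrays and -3.08 and -3.03 on the Slug 2 arrays, and the second had -4.05, -3.81, -4.43 and -4.18 in the same order. The third clone did not follow them, with -0.61, 0.33, 0.20 and -0.16. Apart from CDH1, which set the sign, 6 markers of epithelial cells were measured: DSP and KRT19 were lower and none was higher, with a median of -0.93 (-1.02 in Slug 1 and -0.45 in Slug 2). EPCAM, an adhesion protein of epithelia, had -2.61, -2.94, -1.81 and -0.11 and did not pass (adjusted p = 0.109), and the keratins KRT7 (-0.18), KRT8 (0.23) and KRT18 (0.14) stayed near 0 without passing. Among 7 measured mesenchymal markers, FN1 and COL1A2 were higher and none was lower, with a median of 1.25 in Slug 1 and 0.11 in Slug 2. Markers of other cell types were mixed: of 5 leukocyte markers BTK was higher and PTPRC and ITGAX were lower, of 6 endothelial markers ENG and TEK were higher, and none of the 2 neural markers passed. Without Slug 1 the calls of BTK (0.36), PTPRC (-0.50), ITGAX (-0.30), ENG (0.74) and TEK (0.38) were lost. The leukocyte, endothelial and neural medians were -0.47, 0.25 and 0.12, and the part of these markers in the results below was not tested. Over all genes 12.2% were called higher and 9.62% lower, and with so few markers per set the counts are a description.

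The 12 largest rises are given first. LUM, a collagen-binding proteoglycan, had log2 ratios of 3.44 and 4.02 on the Slug 1 arrays and of 4.01 and 4.23 on the Slug 2 arrays. ITGA5, the alpha subunit of the fibronectin receptor, had 3.38 and 3.72 in Slug 1 and 3.89 and 2.72 in Slug 2. All 4 arrays put both genes far above 0, with means of 3.93 ± 0.28 (SD, n = 2; 15.2-fold, adjusted p = 4.15e-04) for LUM and 3.43 ± 0.17 (10.8-fold, adjusted p = 0.00316) for ITGA5. TIMP1, an inhibitor of matrix metalloproteinases, had 1.86 and 3.25 in Slug 1 and 3.66 and 3.07 in Slug 2 (mean 2.96 ± 0.57, adjusted p = 6.34e-04). WNT5A, a ligand of noncanonical Wnt signalling, had 2.14 and 2.71 in Slug 1 and 3.53 and 2.78 in Slug 2 (mean 2.79 ± 0.52, adjusted p = 0.0204). The WNT5A samples did not overlap 0 on any array, but its call was lost without Slug 1 (3.15), without Slug 2 (2.42) and after scaling to equal spread.

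SIRPA, the receptor for CD47, rose by 2.47 ± 0.30 (SD, n = 2; adjusted p = 0.00204) and BHLHE40, a helix-loop-helix repressor, by 2.37 ± 0.19 (adjusted p = 5.1e-04). CDKN1A, the cyclin-dependent kinase inhibitor p21, rose by 2.35 ± 0.08 (adjusted p = 0.00593) and LDB2, a cofactor of LIM domain factors, by 2.17 ± 0.13 (adjusted p = 7.91e-04). For these 4 genes the lowest array stood at 1.95 or above. SCD5, a stearoyl-CoA desaturase, rose by 2.29 ± 0.23 and is taken up again with its paralogue. HSPG2, the basement membrane proteoglycan perlecan, had 2.26 and 2.11 in Slug 1 and 2.39 and 1.66 in Slug 2. PATL1, a factor of mRNA decay bodies, had 1.91 and 1.62 in Slug 1 and 1.52 and 3.18 in Slug 2, so that 1 array of the 4 lay well above the others. TCF4, a helix-loop-helix E protein and partner of Twist, had 3.27 and 3.02 in Slug 1 against 2.11 and 0.05 in Slug 2. Its mean of 2.11 ± 1.46 (adjusted p = 0.0124) rests mainly on Slug 1, and without that sample the value was 1.08 and the call was lost.

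The 12 largest falls are CDH1, which set the sign, and 11 other genes. SPP1, the secreted matrix protein osteopontin, had log2 ratios of -4.06 and -3.61 in Slug 1 and -4.13 and -3.34 in Slug 2 (mean -3.78 ± 0.07, 13.8-fold lower, adjusted p = 4.99e-04). FXYD3, a regulator of the sodium pump, had -3.73 and -3.87 in Slug 1 and -3.53 and -2.79 in Slug 2 (mean -3.48 ± 0.45, adjusted p = 4.48e-04). Every array read these 2 genes at least 2.79 log2 units below the control. PTPRZ1, a receptor tyrosine phosphatase, had -1.60 and -3.83 in Slug 1 and -3.40 and -3.11 in Slug 2 (mean -2.98 ± 0.38, adjusted p = 0.00717), with the Slug 1 array titled Cy5 apart from the others. IL1RN, the interleukin-1 receptor antagonist, had -3.60 and -2.57 in Slug 1 and -2.92 and -2.20 in Slug 2. RGS2, which dampens G protein signalling, averaged -2.40 ± 0.39 and ATP4A, the catalytic subunit of the gastric proton pump, -2.33 ± 0.16 (SD, n = 2; adjusted p = 4.99e-04 each). KRT19, a keratin of simple epithelia, differed between the samples, with -1.83 and -1.45 in Slug 1 and -3.01 and -2.48 in Slug 2, yet all 4 arrays lay below 0. SRGN, a proteoglycan of secretory granules (-2.11), SLC2A3, a glucose transporter (-2.03), ITGB6, the beta subunit of an epithelial integrin (-2.02), and ANXA1, a phospholipid-binding annexin (-1.99), followed, none with an array above -1.69.

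**Figure D2:**
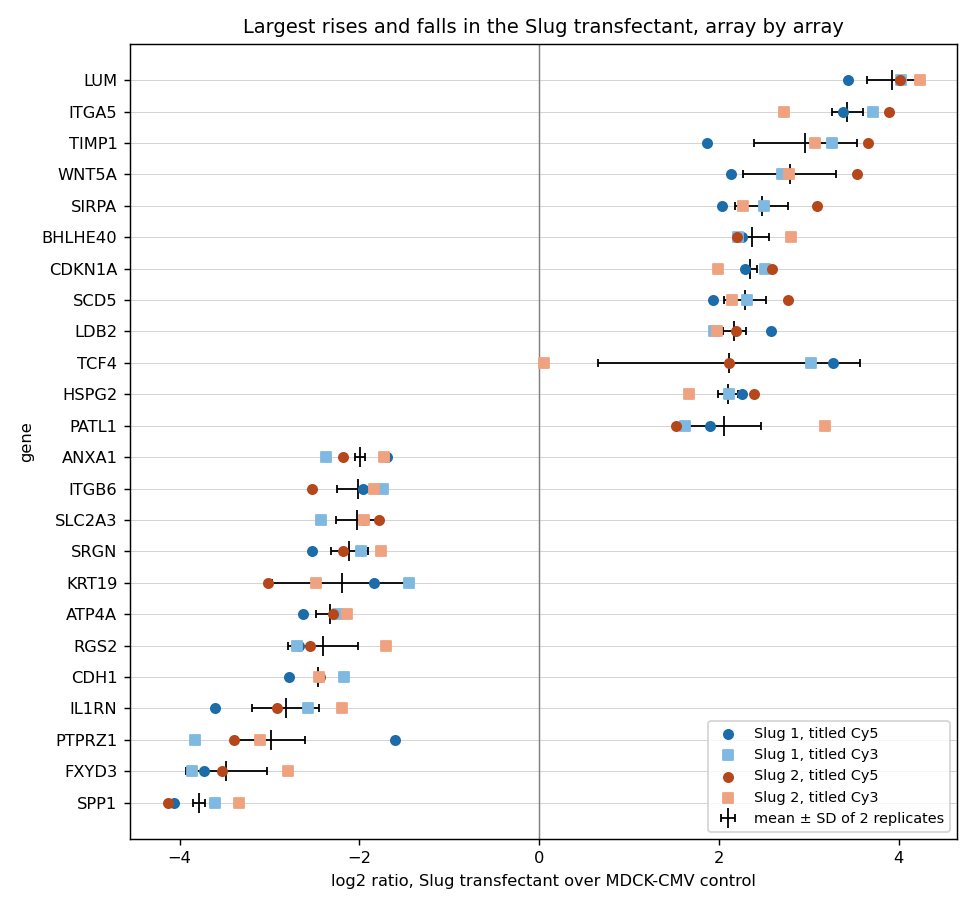
Log2 ratio of the Slug transfectant over the MDCK-CMV control on each of the 4 arrays (coloured points) for the 12 largest rises and the 12 largest falls with all 4 arrays on one side of 0; black ticks and bars are the mean ± SD of the 2 replicates. LUM at 3.93 and SPP1 at -3.78 mark the ends, and TCF4 has the widest bar, with 1 array at 0.05.

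Junction genes and other genes that Slug is known to act on lay on both sides of 0. Of 8 measured genes besides CDH1 on a list of reported Slug and Snail repression targets, DSP and KRT19 were lower, BBC3 was higher and 5 did not pass (37.5% called, against 21.8% of all genes), with a median of -0.12 (all genes 0.02). DSP, the desmosomal plaque protein desmoplakin, had -1.44 and -1.82 in Slug 1 and -1.92 and -1.50 in Slug 2 (mean -1.67 ± 0.06, adjusted p = 4.99e-04). BBC3, the p53-induced death gene PUMA, which Slug is known to repress in blood progenitors, stood at 0.55 ± 0.07 (adjusted p = 0.0333) and lost this call without Slug 1 (0.60) or Slug 2 (0.50). In tight and adherens junctions 2 of 12 members besides CDH1 were higher and none was lower (16.7% called, median -0.08). JUP, the plaque protein plakoglobin, had 0.77, 0.95, 0.87 and 0.70 (adjusted p = 0.0183, lost without either Slug sample, at 0.78 without Slug 1 and 0.86 without Slug 2). VCL, the linker vinculin, rose to 0.76 ± 0.04 (adjusted p = 0.00842) and lost the call without Slug 1, at 0.74. Of 10 desmosome and gap junction genes, DSP and DSG2 were lower (20% called, near the share over all genes). DSG2, a desmosomal cadherin, had -1.75 and -1.61 in Slug 1 but -1.46 and 0.10 in Slug 2, and its call was lost without Slug 1 (-0.68). Without Slug 1, DSP kept its call (-1.71) and no member of the tight and adherens junction list besides CDH1 was called.

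Keratins and epithelial differentiation genes had 4 of 16 members lower and 1 higher (31.2% called), with a median of -0.23. ANXA3, an annexin, fell to -1.50 ± 0.43 (SD, n = 2; adjusted p = 0.00156) along with KRT19. MAL, a protein of apical transport, lay at -0.66 (adjusted p = 0.0158) and lost its call without Slug 1 (-0.76) or Slug 2 (-0.56). KRT14 lay at -0.85, with the Slug 2 array titled Cy3 at 0.29 and a mean of -0.54 in Slug 2. KRT19 and KRT14 could not be tested without a Slug sample and do not enter the counts that leave 1 out. SFN, the stratifin of keratinocytes, rose, with 1.06, 1.01, 1.00 and 1.08, nearly level over the 4 arrays (mean 1.04 ± 0.01, adjusted p = 0.00205). Without either Slug sample 1 member of this list was higher and 1 lower.

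Integrins and focal adhesion proteins had 9 of 26 members higher and 2 lower (42.3% called, median 0.24), or 4 higher and 1 lower without Slug 1 and 7 and 2 without Slug 2. ITGA5 led, and ITGA10, a collagen receptor subunit, had 0.94 and 1.10 in Slug 1 and 1.18 and 0.91 in Slug 2. The proteins that join integrins to actin were among the 9: TLN1 (talin, 1.67), ACTN1 (alpha-actinin, 1.26), PXN (paxillin, 0.93), VCL and BCAR1 (0.56). Their arrays were not alike. TLN1 had 2.15 and 2.22 in Slug 1 but 2.30 and 0.02 in Slug 2, and ACTN1 had 1.55 and 1.99 in Slug 1 against 0.80 and 0.71 in Slug 2, while BCAR1 lay between 0.47 and 0.65 on all 4. SDC4, a heparan sulphate coreceptor, was higher at 0.98. ACTN1 stood at 0.75 without Slug 1, where the calls of PXN (0.46), VCL (0.74), BCAR1 (0.56) and SDC4 (0.64) were lost; BCAR1 also lost its call without Slug 2 (0.57). ITGB6 and CD151, a tetraspanin of laminin-binding integrins (-1.0, adjusted p = 0.0125), were the 2 that fell. CD151 ranged between -1.91 and -0.42 over the arrays and lost its call without Slug 1 (-0.62).

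Among 31 collagens and matrix genes 7 were higher and 2 lower (29.0% called, median 0.13), or 4 and 1 without Slug 1. FN1, fibronectin, the ligand of the ITGA5 receptor, had 1.88 and 1.85 in Slug 1 and 2.02 and 2.26 in Slug 2 (mean 2.00 ± 0.19, adjusted p = 7.91e-04). COL1A2, a chain of type I collagen, had 0.68 and 1.83 in Slug 1 and 1.95 and 1.94 in Slug 2, with the first array low (mean 1.60 ± 0.49, adjusted p = 0.00364). SERPINH1, the collagen chaperone HSP47, lay between 0.91 and 1.05 on all 4 arrays (adjusted p = 0.00402), and PLOD1, a collagen lysyl hydroxylase, at 0.89 ± 0.17 (adjusted p = 0.00831), a call lost without Slug 1 (0.77). COL15A1, a basement membrane collagen, had 3.55 and 3.57 in Slug 1 but 1.64 and -0.06 in Slug 2; it was called at 2.18 ± 1.96 (adjusted p = 0.0232), and the call was lost without Slug 1 (0.79). Besides SPP1, NID2, a nidogen of basement membranes, was lower at -1.31 (adjusted p = 0.0149), a call lost without Slug 1 (-1.35) or Slug 2 (-1.27). Matrix proteases and their inhibitors were called in 3 of 24 members (12.5%), and without Slug 1 in 3 of 25: TIMP1 rose, and MMP14, a membrane-bound collagenase (-0.97, adjusted p = 0.00361), and ADAM10, a sheddase (-0.94, adjusted p = 0.00423), fell on 4 of 4 arrays.

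Actin regulators had 6 of 21 members higher and 2 lower (38.1% called; 4 and 1 without Slug 1), with a median of 0.01. ARPC1B, a subunit of the actin-nucleating Arp2/3 complex, had 0.90, 0.89, 0.92 and 1.00 (adjusted p = 0.00276). ARPC3, another subunit of the same complex, had -0.79, -0.71, -0.43 and -0.21 (adjusted p = 0.0371, lost without Slug 1, at -0.32), so that the 2 subunits lay on opposite sides. MSN, the membrane linker moesin, rose by 1.24 ± 0.25 (adjusted p = 0.0188), a call lost without Slug 1 (1.42) or Slug 2 (1.06), and SPTAN1, spectrin alpha, by 1.05 ± 0.25 (adjusted p = 0.00252). Of 13 immunoglobulin-family adhesion molecules 2 were higher, SIRPA among them, and 3 lower (38.5% called, against 21.8% of all genes). The list median was -0.13 in Slug 1 and -0.08 in Slug 2. ALCAM, an activated leukocyte adhesion molecule also found on epithelia, was lower. It had -1.38 and -1.47 in Slug 1 and -1.68 and -1.24 in Slug 2 (adjusted p = 7.91e-04).

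Among transcription factors of epithelial to mesenchymal transition 4 of the 6 measured were higher (66.7% called, against 21.8% of all genes). SNAI1 (0.67, adjusted p = 0.109) and KLF8 did not pass. TCF3, whose products are the E proteins E12 and E47, had 1.05 and 1.18 in Slug 1 and 1.20 and 1.01 in Slug 2 (mean 1.11 ± 0.01, adjusted p = 0.00203). TWIST1, known from mesoderm formation, had 1.03 and 1.94 in Slug 1 and 2.33 and 2.05 in Slug 2, and ZEB1, a zinc finger repressor of CDH1, had 1.27 and 1.25 in Slug 1 against 0.53 and 0.50 in Slug 2. The TCF3 arrays were nearly level, while the ZEB1 samples did not overlap each other. TWIST1 lost its call without Slug 2 (1.48) and ZEB1 without Slug 1 (0.52), as TCF4 did (1.08), which left 2 of the 6 called without Slug 1 and 3 without Slug 2. Over 15 helix-loop-helix factors and their inhibitors 6 were higher and none lower (40.0% called, median 0.32); ID3, an inhibitor of E proteins, was among them at 0.84 ± 0.03 (adjusted p = 0.0173). Without either Slug sample 3 of these factors were called, and ID3 was not, at 0.82 without Slug 1 and 0.86 without Slug 2.

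Immediate early and AP-1 factors had 7 of 25 members higher and none lower (28% called; 5 and 1 without Slug 1). JUND, an AP-1 subunit, had 1.42 and 1.66 in Slug 1 and 1.59 and 1.33 in Slug 2 (adjusted p = 6.79e-04), and ATF3, a stress-induced factor, lay between 0.97 and 1.13 on all 4 arrays (adjusted p = 0.004). JUNB had 1.97 and 1.97 in Slug 1 against 0.67 and 0.21 in Slug 2 and lost its call without Slug 1 (0.44). EGR1 had 1.53, 1.11, 2.22 and -0.60, a range wider than its mean of 1.07.

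Chromatin regulators had 11 of 41 members higher and 2 lower (31.7% called, median 0.23), or 6 and 0 without Slug 1 and 7 and 1 without Slug 2. CHD4, the ATPase of the NuRD remodelling complex, had 1.24 and 1.50 in Slug 1 and 1.62 and 1.47 in Slug 2 (mean 1.46 ± 0.12, adjusted p = 6.97e-04), and its relative CHD3 averaged 1.00 ± 0.13. The SWI/SNF remodelling complex was represented among the 11 by SMARCC1 (1.09), SMARCA4 (0.99), SMARCB1 (0.56) and SMARCC2 (0.47). Without Slug 1 the calls of SMARCA4 (0.97), SMARCB1 (0.47) and SMARCC2 (0.34) were lost, and without Slug 2 those of SMARCA4 (1.01) and SMARCC2 (0.59). The related acetyltransferases EP300, with 0.87 and 1.28 in Slug 1 and 1.34 and 0.99 in Slug 2, and CREBBP, with 0.67, 0.61, 0.57 and 0.70, were both higher, though CREBBP lost its call without Slug 1 or Slug 2 (0.64 in each case). So were EZH2 (0.98 ± 0.10, adjusted p = 0.00382), the methyltransferase of Polycomb complex PRC2, and RING1 (0.94 ± 0.19, adjusted p = 0.00276), a ligase of PRC1. HDAC3, a deacetylase (-0.45), and HMGB1, a DNA-bending protein (-0.46), were the 2 lower members, and each lost its call without Slug 1 (-0.29 and -0.43) or Slug 2 (-0.61 and -0.48).

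Wnt genes had 10 of 31 members higher and none lower (32.3% called, median 0.24), with 3 higher without Slug 1 and 6 without Slug 2. WNT5B, a close relative of WNT5A, had 1.14 and 1.47 in Slug 1 and 1.25 and 1.07 in Slug 2 (adjusted p = 0.00441), and GSK3A, a kinase that restrains beta-catenin, lay between 1.07 and 1.56 (adjusted p = 0.00154). In the TGF-beta and BMP list 10 of 33 members were higher and 2 lower (36.4% called), or 4 and 0 without Slug 1 and 10 and 0 without Slug 2. INHBA, an activin subunit, had 0.90, 1.57, 1.13 and 0.89 (adjusted p = 0.00276), and BMP2 had 1.04, 0.73, 0.78 and 1.09 (adjusted p = 0.00441). CCN2, a matricellular protein also called CTGF, had 1.08 and 1.37 in Slug 1 and 0.85 and 1.36 in Slug 2. The 2 lower members were the receptor TGFBR1 (-0.59) and the signal transducer SMAD5 (-0.60), both lost without Slug 1 (-0.48 and -0.63) or Slug 2 (-0.71 and -0.57).

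Growth factors and their receptors had 11 of 58 higher and 2 lower (22.4% called, near the 21.8% of all genes). The list median was 0.08, or 0.12 without Slug 1. VEGFA, the vascular growth factor, had 1.71 and 2.11 in Slug 1 and 2.17 and 1.98 in Slug 2 (adjusted p = 4.15e-04). FGFR1, a receptor of fibroblast growth factors, lay between 1.30 and 1.61 on all 4 arrays (adjusted p = 7.91e-04), and HGF, the scatter factor to which MDCK cells are known to respond, had 0.69, 0.94, 1.18 and 0.84 (adjusted p = 0.00517). Of the 2 that fell, MST1R, the receptor RON, a relative of the HGF receptor, had -0.82 and -1.45 in Slug 1 and -1.10 and -0.65 in Slug 2, and NRG2, a ligand of ERBB receptors, averaged -1.36 ± 0.03 (adjusted p = 0.00625). GAB1, an adaptor below growth factor receptors, was lower at -1.73 and -1.94 in Slug 1 and -1.71 and -1.89 in Slug 2 (mean -1.81 ± 0.02, adjusted p = 0.00149). DDIT4, an inhibitor of mTOR signalling also called REDD1, was higher at 1.68 ± 0.21 (adjusted p = 7.91e-04), and SGK1, a kinase of sodium transport, was lower at -1.01 ± 0.10 (adjusted p = 0.00512). Signalling through NF-kappa-B and the TNF receptor family was called in 3 of 35 members (8.57%; 0 without Slug 1), and interferon and antigen presentation genes in 6 of 44 (13.6%).

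**Figure D3:**
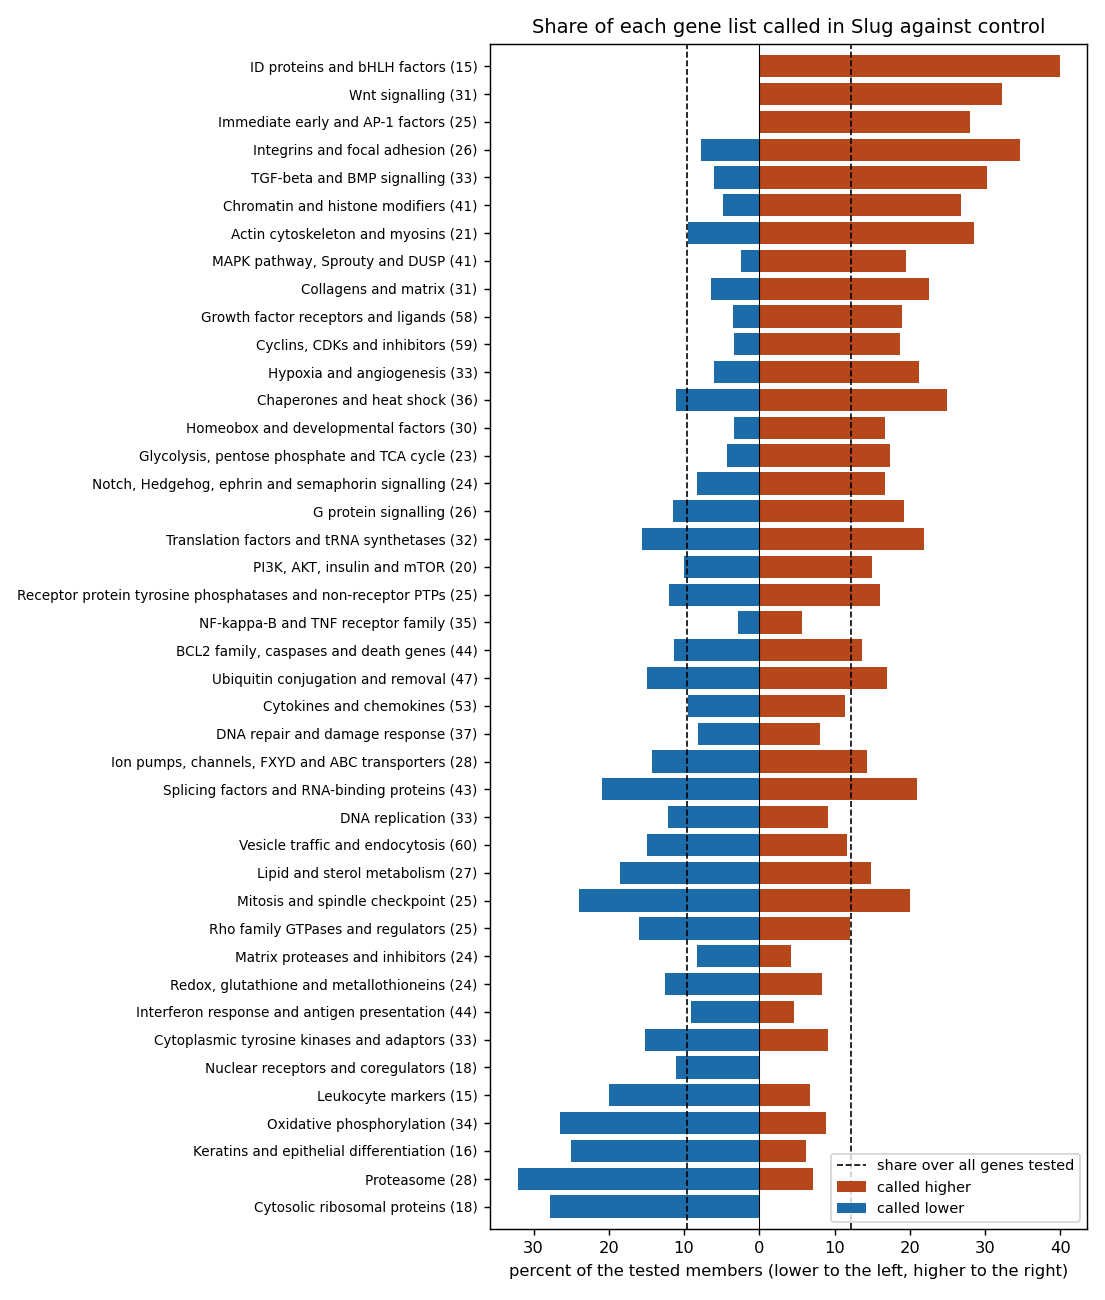
Percent of the tested members of each gene list with 15 or more members called higher (right) or lower (left) in the Slug transfectant against control, with the number tested in parentheses; dashed lines mark the shares over all 4053 genes (12.2% higher, 9.62% lower). Integrin, Wnt, TGF-beta and chromatin lists extend to the right and proteasome, cytosolic ribosomal and oxidative phosphorylation lists to the left.

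The proteasome, which degrades ubiquitin-tagged proteins, had 9 of 28 members lower and 2 higher (39.3% called, median -0.25). Without Slug 1 the lower members numbered 1 and without Slug 2 again 9. Of the 15 measured subunits of its catalytic core, those with symbols starting PSMA or PSMB, 7 were lower and none was higher. Over all genes 9.62% were lower. The values of the core subunits ran between -0.91 and 0.31, with a median of -0.60. This subset was chosen after the values were seen, and it was not counted without Slug 1. PSMA2, a core subunit, had -0.83 and -1.23 in Slug 1 and -1.08 and -0.52 in Slug 2 (mean -0.92 ± 0.17, adjusted p = 0.00282). PSMB8, the inducible core subunit of the immunoproteasome, had -0.30, -1.22, -0.34 and -0.75 (adjusted p = 0.0111, not called without Slug 1, at -0.54). The higher members were PSME3, the nuclear activator PA28-gamma, with 1.72 and 1.19 in Slug 1 and 1.24 and 1.59 in Slug 2 (adjusted p = 7.91e-04), and PSMD3, a regulatory particle subunit, at 0.92 ± 0.19. By array, the list median was -0.35 and -0.65 in Slug 1 and -0.20 and -0.00 in Slug 2.

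Cytosolic ribosomal proteins had 5 of 18 members lower and none higher, and 14 lay below 0 in both samples (77.8%, against 34.6% of all genes), with a median of -0.35; without Slug 1, 2 were lower and 1 higher. RPL35A, of the large subunit, fell most, with -1.91 and -1.46 in Slug 1 and -1.40 and -1.49 in Slug 2 (mean -1.56 ± 0.17, adjusted p = 0.00102). RPL22 lay between -1.17 and -0.89 (adjusted p = 0.00227). Translation factors and tRNA synthetases went both ways, with 7 of 32 higher and 5 lower (37.5% called), or 2 and 2 without Slug 1. The initiation factors EIF2S1, the alpha subunit of eIF2 (-1.19 ± 0.09, adjusted p = 0.00196), and EIF1AX (-1.12 ± 0.00, adjusted p = 0.00484) were lower. The elongation factor subunit EEF1D was higher, with 1.12 and 1.70 in Slug 1 and 0.99 and 0.67 in Slug 2.

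Oxidative phosphorylation genes had 9 of 34 members lower and 3 higher (35.3% called, median -0.12), or 3 lower and 0 higher without Slug 1. SDHD, an anchor subunit of complex II, had -1.58 and -1.26 in Slug 1 and -0.93 and -1.21 in Slug 2 (mean -1.25 ± 0.25, adjusted p = 0.00316). COX7A2, a subunit of cytochrome oxidase, averaged -1.15 ± 0.06 (adjusted p = 0.00149), and NDUFV2, of complex I, -0.86 ± 0.22 (adjusted p = 0.00403). CYC1, a cytochrome of complex III, was one of the 3 that were higher (0.68 ± 0.00, adjusted p = 0.0079), a call lost without Slug 1, at 0.68. In glycolysis ALDOA, an aldolase, had 1.34 and 1.78 in Slug 1 and 1.41 and 1.29 in Slug 2 (adjusted p = 7.91e-04).

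Chaperones had 9 of 36 members higher and 4 lower (36.1% called, median 0.20), or 3 and 1 without Slug 1. FKBP2, a prolyl isomerase of the endoplasmic reticulum, had 1.58 and 1.55 in Slug 1 and 1.65 and 1.71 in Slug 2 (adjusted p = 6.34e-04). P4HB, a disulphide isomerase, and SERPINH1 were higher as well, P4HB without its call when Slug 1 was left out (0.65). Subunits of the cytosolic chaperonin CCT lay on both sides: CCT5 was higher (0.82 ± 0.12, adjusted p = 0.00761, lost without Slug 1 at 0.74), whereas CCT2 was lower, with -1.22 and -1.31 in Slug 1 and -1.42 and -1.12 in Slug 2 (adjusted p = 0.00172). Splicing factors and RNA-binding proteins were called in 18 of 43 members (41.9%), 9 in each direction (4 higher and 6 lower without Slug 1, 5 and 3 without Slug 2), with SRSF4 at 1.21 and DDX3X at -1.08. ESRP2, an epithelial splicing regulator, was lower at -0.57 ± 0.11 (adjusted p = 0.0197), a call lost without Slug 1 (-0.49) or Slug 2 (-0.65).

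**Figure D4:**
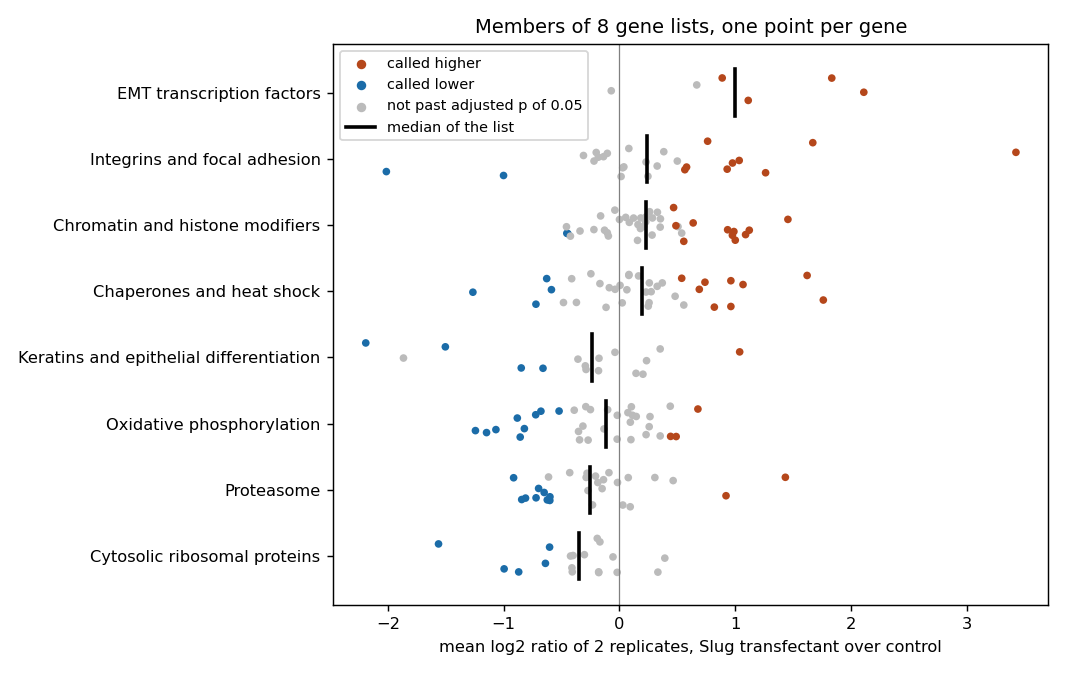
Mean log2 ratio of the 2 Slug replicates for each tested member of 8 gene lists, coloured by call, with a black line at the list median. Medians run between 1.00 for 6 EMT transcription factors and -0.35 for 18 cytosolic ribosomal proteins, and every list has members on both sides of 0.

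Genes of division gave mixed signs. Cyclins, kinases and their inhibitors had 11 of 59 members higher and 2 lower (22% called, the share over all genes being 21.8%; 3 and 0 without Slug 1), with CDKN1A and the S-phase factor E2F1 at the top. E2F1 had 1.14 and 1.47 in Slug 1 and 1.69 and 1.36 in Slug 2 (adjusted p = 8.63e-04). Mitosis and spindle checkpoint genes had 5 of 25 higher and 6 lower (44.0% called), or 2 and 1 without Slug 1 and 2 and 5 without Slug 2. PLK1, a mitotic kinase, had 0.84, 1.03, 1.03 and 0.83 (adjusted p = 0.00276), while BUB1, a checkpoint kinase, had -1.96 and -1.64 in Slug 1 and -1.32 and -1.47 in Slug 2 (adjusted p = 0.00112). KIF11, the motor that separates spindle poles, was lower at -1.15 ± 0.31 (adjusted p = 0.00717) and lost its call without Slug 1 (-0.93). Both primase subunits were lower, PRIM1 at -0.89 ± 0.14 and PRIM2 at -1.20 ± 0.72, with calls lost without Slug 2 for PRIM1 (-0.79) and without Slug 1 for PRIM2 (-0.69).

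Several pairs of related genes, chosen after their values were seen, were called in opposite directions. SCD5 had 1.94 and 2.31 in Slug 1 and 2.77 and 2.14 in Slug 2, whereas SCD, its paralogue, had -1.48 and -2.09 in Slug 1 and -0.97 and -0.27 in Slug 2, a call lost without Slug 1 (-0.62). PTPN1 and PTPN2 encode closely related phosphatases. PTPN1 had 2.01 and 1.77 in Slug 1 and 1.36 and 1.77 in Slug 2, and PTPN2 had -1.26 and -1.62 in Slug 1 and -1.72 and -1.49 in Slug 2, so the 2 sets of arrays were about 3 log2 units apart. Among death regulators of one family BCL2L1 was higher (1.50 ± 0.16, adjusted p = 0.00111) and MCL1 lower (-0.98 ± 0.15, adjusted p = 0.00552, lost without Slug 1 at -0.87). The glucose transporter SLC2A1 was higher at 0.65 (adjusted p = 0.027), a call lost without Slug 1 (0.46), and SLC2A3 lower. Single subunits of proton pumps also lay on both sides: ATP6V0D1 (1.42 ± 0.58) and ATP6V0C (1.22 ± 0.13) of the vacuolar pump were higher and ATP4A was lower. Of 13 measured genes with symbols starting ATP6, however, 3 were higher and none lower, with a median of 0.09. Their values ran between -0.52 and 1.42, and 12.2% of all genes were higher.

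The samples disagreed most at 6 genes. SPARC, a secreted matrix protein, had 4.57 and 3.78 on the Slug 1 arrays and -0.59 and -0.74 on the Slug 2 arrays. Both arrays of each sample agreed, the samples stood 4.84 log2 units apart, and the mean was not called (1.75 ± 3.42, adjusted p = 0.194). GOLGA1, a golgin, had the same form, with 1.29 and 1.44 against -0.68 and -0.90. For CALD1, the actin-binding caldesmon, a single array stood apart, with 0.04 and 3.88 in Slug 1 and -0.86 and -0.41 in Slug 2. The same held for PSMG2, a proteasome assembly chaperone, with -0.66, -1.19, 2.51 and 0.29. ZNF618 had 2.18, 1.26, -1.25 and 0.19, and COL15A1 was described above. Over all 4053 genes, 119 differed by more than 1 log2 unit between the samples and 10 by more than 2.

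Clones of one gene could also disagree. Of 93 called genes with at least 2 measured clones, 82 had all clones on the same side of 0, and of 371 uncalled genes 185 did. CCND1, cyclin D1, was called at 0.69 ± 0.05 (adjusted p = 0.00726) over 3 clones with means of 1.38, -0.23 and 0.93. Leaving out Slug 1 ended that call (0.66). CDK16, a PCTAIRE kinase, was called at 0.43 (adjusted p = 0.0368) over clones at 0.34, -0.28 and 1.24, and its call was lost without Slug 1 (0.49) or Slug 2 (0.37). ARID5B, a DNA-binding cofactor, had clones at 0.21, -0.64 and 1.14 and was not called.

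Set directly against the Snail transfectant, Slug differed in 489 of 3675 genes (13.3%), 337 above Snail (9.17%) and 152 below (4.14%). Against the E47 transfectant it differed in 30 of 3816 (0.786%), 10 above (0.262%) and 20 below (0.524%), while 618 passed an unadjusted p of 0.05. Both comparisons share the Slug samples, and 17 genes passed both in the same direction, 9 with Slug above and 8 with Slug below. Without Slug 1 the counts were 226 against Snail and 17 against E47, and without Slug 2 they were 405 and 32. Leaving out Snail 1 or Snail 2 gave 141 or 171 against Snail, and leaving out E47 1 or E47 2 gave 8 against E47 in each case. If the sign of 1 transfectant were wrong, these differences would be sums, and with all 4 Slug arrays turned 985 genes would pass against E47 and 672 against Snail.

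LUM had 3.73 and 4.12 in the Slug samples, against 1.57 and 2.74 in Snail and 0.06 and 0.44 in E47; the difference was 1.77 ± 0.36 from Snail (SE; adjusted p = 0.0222) and 3.68 ± 0.36 from E47 (adjusted p = 0.0142). ATF4, a factor of the integrated stress response, had 0.80 and 0.81 in Slug, against -1.03 and -0.87 in Snail and -0.67 and -0.63 in E47, so that Slug lay on the other side of the control (adjusted p = 0.00312 against Snail and 0.0178 against E47). CCN1, a matricellular ligand of integrins, had 1.43 and 1.45 in Slug, against 0.11 and -0.21 in Snail and 0.20 and 0.34 in E47. FBXO7, a substrate receptor of ubiquitin ligases, had 1.96 and 1.56 in Slug, against 0.02 and -0.31 in Snail and 0.11 and 0.34 in E47. For these 4 genes the Slug samples did not overlap those of the other transfectants, but the genes were chosen by these same differences. The ubiquitin ligase HUWE1 (1.25 and 1.35 in Slug) and LRRC8C, a volume-regulated channel subunit (1.72 and 1.70 in Slug), lay above both as well. Of the 6, LUM and ATF4 passed both tests without Slug 1, and FBXO7 and ATF4 without Slug 2.

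Below both lay ATP4A, with -2.44 and -2.21 in Slug, against 0.46 and -0.24 in Snail and -0.38 and -0.50 in E47 (differences of -2.43 ± 0.25 and -1.89 ± 0.25, adjusted p = 0.00409 and 0.0278). CERS6, a ceramide synthase, had -1.32 and -1.46 in Slug, against 0.05 and -0.02 in Snail and -0.23 and 0.20 in E47. LIG4, the ligase of DNA end joining, had -0.89 and -0.61 in Slug, against 0.24 and 0.20 in Snail and 0.32 and 0.32 in E47. CD59, a complement inhibitor, lay at -0.67 and -1.02 in Slug and FAM111B, a protease, at -1.02 and -1.07, where all Snail and E47 samples stood at -0.06 or above. TTF2, a transcription termination factor, had -1.03 and -0.93 in Slug. Of these 6 genes none passed both tests without Slug 1, and ATP4A and TTF2 did without Slug 2. Over all 12 genes above or below both, 3 or 4 passed both without 1 Snail sample, 2 (LUM and LRRC8C) without E47 1 and 1 (LUM) without E47 2, and no difference changed its sign.

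**Figure D5:**
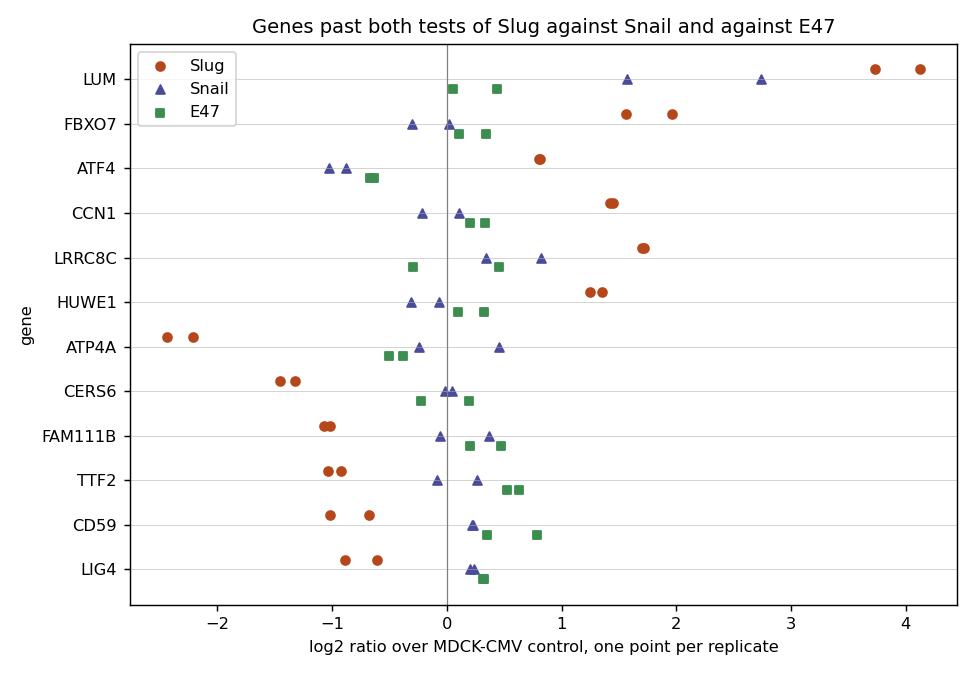
Log2 ratio over the MDCK-CMV control in each of the 2 samples of Slug, Snail and E47 for the 12 genes with the largest differences among those past both tests of Slug against Snail and against E47 in the same direction. Slug points stand to the right for the upper 6 genes and to the left for the lower 6; LUM in Slug reaches 4.12 and ATP4A in Slug -2.44.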

How the data were processed

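The values analysed were the log2 ratios that the authors deposited for 13056 probes per array. Array medians lay near 0, between -0.0634 and 0.0594. How spots were scanned, background-corrected, normalized, centred or left empty is not given in the sources used here. Of the probes 8047 carried 1 gene symbol, 276 several and 4733 none in the platform annotation, and only the first entered, giving 4325 genes, of which 4053 had both Slug replicates and 272 did not. Spots were averaged per clone, clones per gene and arrays per numbered sample. Snail and E47 arrays were turned to a common sign within each transfectant by the leading eigenvector of their correlations without CDH1, and then so that CDH1 was below 0.

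limma 3.58.1 in R 4.3.3 fitted Slug, Snail and E47 together without an intercept (3 residual degrees of freedom, prior degrees of freedom 4.87, prior SD 0.203), two-sided, with Benjamini-Hochberg adjustment over all genes tested and a threshold of 0.05. The deviations of same-numbered samples correlated with r = 0.02 for Slug with Snail, -0.06 for Slug with E47 and 0.23 for Snail with E47; not every pair passed 0.1, so the numbers were not taken as pairs. The number of arrays limits the precision.

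Genes named are the 12 largest rises and falls with 4 arrays on one side, up to 4 called members per list and direction, the 6 most discordant genes, the 6 largest differences from both other transfectants in each direction, and genes with discordant clones; further members of the lists and the genes of families and pairs were chosen after their values were seen. The comparison, the 54 gene lists and the tests were chosen with earlier results of these data known.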

Additional observations from a re-analysis of the deposited data

Results flagged for a closer look

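The difference between the Slug transfectant and the other transfectants passed its own limma test against both Snail and E47 at 12 genes that are described above. Above both, in log2 units, LUM differed by 1.77 from Snail and 3.68 from E47, FBXO7 by 1.90 and 1.54, ATF4 by 1.76 and 1.46, CCN1 by 1.49 and 1.17, LRRC8C by 1.13 and 1.63, and HUWE1 by 1.49 and 1.09. Below both, ATP4A differed by -2.43 from Snail and -1.89 from E47, CERS6 by -1.41 and -1.37, FAM111B by -1.20 and -1.38, TTF2 by -1.07 and -1.56, CD59 by -1.07 and -1.41, and LIG4 by -0.97 and -1.07. These genes were the largest of 17 past both tests in the same direction, so their sizes are a description. After scaling all arrays to an equal spread, 4 of the 12 (ATF4, FAM111B, TTF2 and CD59) passed both tests. Each group has 2 samples, too few to look for a single sample far from the others.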

How the results depend on the processing

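Counts of called genes depended on the processing. With the arrays titled Cy5 alone 576 genes were called, 315 of them higher, and 265 differed from Snail; with those titled Cy3 alone the counts were 372 (224 higher, 148 lower), 88 from Snail and 4 from E47. Equal spread of all arrays gave 489 (281 higher, 208 lower, 125 at least 2-fold), and the Slug replicates fitted alone gave 539 (304 higher, 235 lower). Dyes taken literally, which gives the arrays of a sample opposite signs, gave 0 called, 0 higher, 0 lower and 0 at least 2-fold. Leaving out 1 replicate of any transfectant gave 329 to 896 called, 209 to 489 higher, 120 to 407 lower, 176 to 306 at least 2-fold, 141 to 405 from Snail and 8 to 32 from E47. Without the Slug 1 array titled Cy5, 15 genes differed from E47; without the Slug 2 array titled Cy5, 271 differed from Snail and 5 from E47. Turning all 4 Slug arrays gave 985 against E47. These last settings were chosen after seeing the data. The replicate number as a block gave 885 called (500 higher, 385 lower). The share of calls that were higher was 55.9% in the reported fit, 60.2% with Cy3 alone and 53.0% with each array centred on its median. Signs turned with the arrays titled Cy5 alone for CALD1 (-0.41), GANAB (-0.77), KRT18 (-0.059), PCBP2 (-0.24) and PKM (-0.30), and with those titled Cy3 alone for KRT7 (0.10) and PSMG2 (-0.45). Without 1 array they turned for CALD1 (-0.30) and GANAB (-0.062) with Slug 1 Cy3 left out, KLF8 (0.09) with Slug 1 Cy5, KRT7 (0.08) and PSMG2 (-0.32) with Slug 2 Cy5, and GANAB (-0.18), KRT18 (-0.052) and KLF8 (0.022) with Slug 2 Cy3. Without 1 Slug sample CALD1 stood between -0.64 and 1.96, GOLGA1 -0.79 and 1.37, KRT7 -0.42 and 0.055, PSMG2 -0.92 and 1.40, SPARC -0.67 and 4.17, and ZNF618 -0.53 and 1.72. The cause was not tested. HSPG2, KRT14, KRT19 and P3H1 could not be tested without a Slug sample. The deposited ratios hold no signal over background, so the weight of dim spots was not tested.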

Other observations

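Outside the 54 gene lists 517 of 2674 tested genes were called (19.3%), against 368 of 1379 in the lists (26.7%). The genes named here were chosen after their values were seen. CD63, a tetraspanin of late endosomes, had log2 ratios of 1.41 and 2.06 in Slug 1 and 1.90 and 2.51 in Slug 2 (mean 1.97 ± 0.33, SD, n = 2; adjusted p = 0.00154). ANO6, a lipid scramblase, stood between 1.81 and 1.98 on all 4 arrays (adjusted p = 0.00561). SEC16A, an organiser of exit sites on the endoplasmic reticulum, averaged 1.63 ± 0.14, CKB, a creatine kinase, 1.65 ± 0.05, and P3H1, a collagen prolyl hydroxylase, 1.46 ± 0.07. Among the falls, ADGRV1, a very large adhesion receptor, had -1.44 and -1.99 in Slug 1 and -1.93 and -1.69 in Slug 2 (adjusted p = 0.00103). PLSCR1, a phospholipid scramblase, averaged -1.68 ± 0.47, TRMT11, a tRNA methyltransferase subunit, -1.67 ± 0.17, and FGFBP1, a carrier of fibroblast growth factors, -1.60 ± 0.55. Of 24 mitochondrial ribosomal proteins, 3 were higher and 3 lower (median -0.16), near the shares over all genes (12.2% higher and 9.62% lower). Among the lower ones, MRPL1 (-1.44) and MRPS10 (-1.42) lost their calls without Slug 1 (-1.20 and -1.14).

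At 11 of the 885 called genes the mean of the arrays titled Cy5 and that of the arrays titled Cy3 lay on opposite sides of 0. PKM, a pyruvate kinase, had -0.42 and -0.18 on the arrays titled Cy5 and 2.97 and 3.22 on those titled Cy3, and was called at 1.39 (adjusted p = 8.63e-04) because its 2 samples were alike. GANAB, a glucosidase of glycoprotein folding, had means of -0.77 and 1.83, and PCBP2, an RNA-binding protein, of -0.24 and 1.57 on the arrays titled Cy5 and Cy3. The call of GANAB was lost without Slug 1 (0.39) and that of PCBP2 without Slug 2 (0.49). With the arrays titled Cy5 alone, PKM stood at -0.30. The cause was not tested.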
